A study of Amorphotheca resinae with 20 samples.

Results

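A set of 34 genes, of the 18830 in the tables, stood out in the fungus Amorphotheca resinae ZN1, a filamentous species known as the kerosene fungus, by a larger difference from the control with 4-hydroxybenzaldehyde than with any other inhibitor tested. They were chosen on measured values. For each of 7 inhibitors, R was the log2 ratio of the mean level with the inhibitor plus 1 to the mean level in its own control plus 1, with levels in CPM, the counts of a gene divided by the total of its library and scaled to 1000000. A member had its largest R, in size, for 4-hydroxybenzaldehyde, an R of at least 1.2 for it, and an R at least 0.8 below that for both vanillin and syringaldehyde. All values of R for the members are therefore a description. Calls against the controls are counted below beside the share of all genes called, and they are no independent evidence for the members.

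All libraries came from wild-type mycelia of strain ZN1 grown at 28 °C from inoculated spores in potato-dextrose medium and collected at 4 h, with 2 libraries per group. In the phenolic aldehyde experiment the medium held 0.1 g/L of 4-hydroxybenzaldehyde, vanillin or syringaldehyde, or none in the control. In the furan experiment it held 1.0 g/L of furfural or of 5-hydroxymethylfurfural (HMF), or none, and in the weak acid experiment 2.0 g/L of acetic acid or 4.0 g/L of formic acid, or none. The labels do not say that both libraries of a group came from separate cultures, so tests measure the spread between these libraries, which may be technical. The 20 libraries held 11601181 to 26106956 counts.

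4-Hydroxybenzaldehyde is an aromatic aldehyde with a single hydroxyl group on its ring, released from plant cell walls when biomass is pretreated. Vanillin carries a methoxy group beside that hydroxyl, and syringaldehyde carries one on each side of it. In filamentous fungi in general, such aldehydes are reduced to the alcohol or oxidised to the acid, and 4-hydroxybenzoic acid and vanillic acid are then turned into hydroxylated intermediates whose ring is opened. Which enzymes the 34 genes encode is unknown here: the tables give identifiers only, and none of them is found among the 9642 genes of the reference annotation, which is of another strain (0 matched). No role is given to any gene below for that reason.

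The rule narrowed the tables in steps. An R of at least 1.2 for 4-hydroxybenzaldehyde was held by 66 genes, which is 0.351% of all genes. Of these, 43 stood at least 0.8 above vanillin and 42 above both other phenolic aldehydes, and in 8 of the 42 another inhibitor gave a larger R in size. The members just inside the threshold of 1.2 were ARZ_10095_T1 (1.21), ARZ_13463_T1 (1.29) and ARZ_3530_T1 (1.38). Just outside it, with the other parts of the rule met and at least 10 CPM with 4-hydroxybenzaldehyde, were ARZ_6322_T1 (1.19), ARZ_4009_T1 (1.16) and ARZ_15969_T1 (1.16). There was no gap in R at the threshold. The set depended on the control libraries, since the rule found 28 genes without phenolic control replicate 1 and 57 without replicate 2, of which 28 and 33 were among the 34.

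With 4-hydroxybenzaldehyde the median member was at 103 CPM, against 11.2 CPM in the phenolic control, while the medians of all genes were 17.7 and 18.6 CPM. The members' R for it ran from 1.21 to 6.65 with a median of 1.79. Of the 34, 6 had an R of at least 3, 13 of at least 2, and 21 lay under 2. In 33 members both 4-hydroxybenzaldehyde libraries lay above all 6 other phenolic libraries, a separation seen in 9.56% of all genes. In 31 they lay above all 18 other libraries of the 3 experiments, against 3.05% of all genes. In the fit of all genes, 33 of the 34 passed the edgeR quasi-likelihood test (adjusted p under 0.05, Benjamini-Hochberg) as higher than the control, and 0 as lower, against 3.11% and 5.0% of all genes tested (8.11% in either direction). The count was 20 without phenolic control replicate 1. Against vanillin 33 were called higher and 0 lower (8.62% and 8.89% of all genes, 17.5% together), and against syringaldehyde also 33 and 0 (11.1% and 10.2%, 21.3% together). With all libraries in the fit, no member was lower at an unadjusted p under 0.05 or by DESeq2 in these 3 contrasts (0 and 0). Without 4-hydroxybenzaldehyde replicate 2, R for that compound was negative in ARZ_1590_T1 (−1.14). The rule used these 3 contrasts, so nothing is read from the counts.

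**Figure D1:**
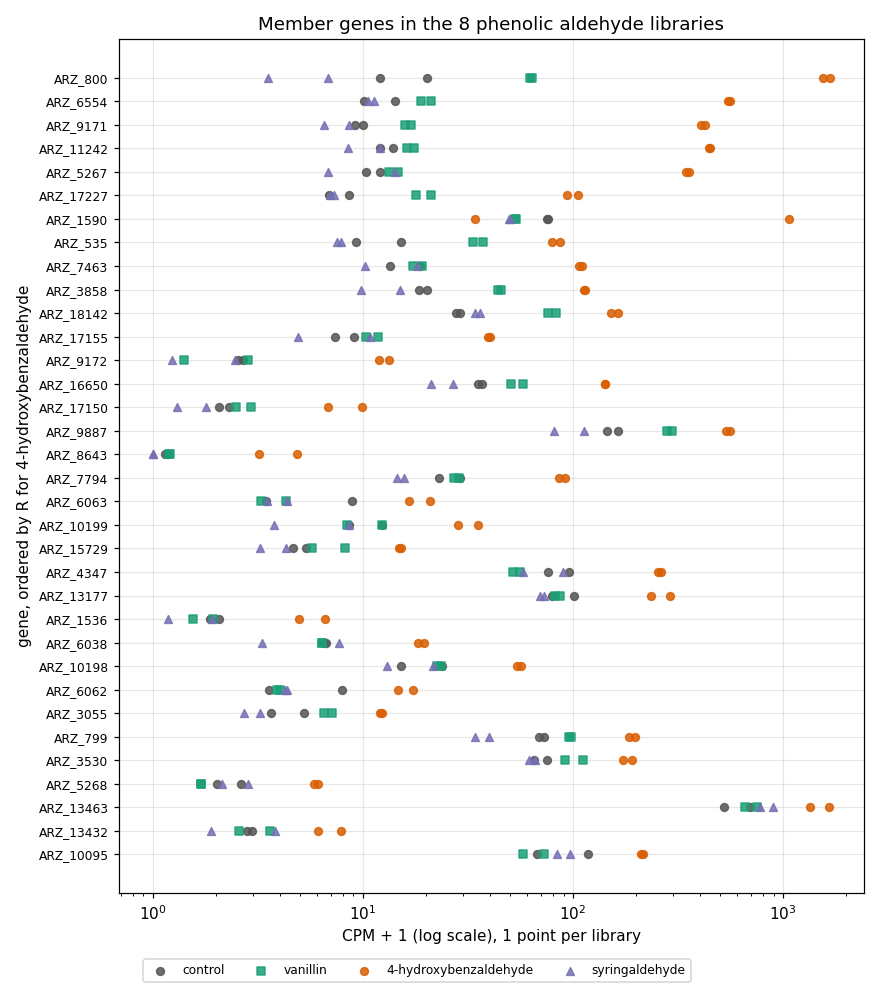
Levels of the 34 genes in the 8 libraries of the phenolic aldehyde experiment, as CPM + 1 on a log axis, with 1 point per library and genes ordered by R for 4-hydroxybenzaldehyde. The 4-hydroxybenzaldehyde points lie to the right of all others in 33 genes; in ARZ_1590_T1 they lie at both ends of the row.

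The 5 leading members, those with the largest R, had an R from 4.97 to 6.65, and the sixth was at 3.70. ARZ_800_T1 was at 1664 and 1551 CPM with 4-hydroxybenzaldehyde and at 19.0 and 11.1 CPM in the control. Its mean was 107 times the control mean (1608 ± 80.0 against 15.1 ± 5.65 CPM, SD, n = 2). The groups were far apart, and this gene alone gave 0.166% and 0.155% of the counts of the 4-hydroxybenzaldehyde libraries. ARZ_6554_T1 was at 559 and 546 CPM against 9.11 and 13.2 CPM in the control, a ratio of means of 49.4. ARZ_9171_T1 was at 422 and 406 CPM against 8.94 and 8.13 CPM, a ratio of 48.5. ARZ_11242_T1 was at 449 and 442 CPM against 12.9 and 11.1 CPM, a ratio of 37.2. These genes were below the median of all genes in the control and at 406 CPM or more in both treated libraries. ARZ_5267_T1 was at 355 and 343 CPM against 11.04 and 9.34 CPM, a ratio of 34.2.

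With the other phenolic aldehydes, 4 of these leading genes were close to one another. They lay between 12.3 and 20.1 CPM in the vanillin libraries and between 5.50 and 13.2 CPM in the syringaldehyde libraries. ARZ_800_T1 was the exception, with 63.0 and 61.4 CPM with vanillin and 2.54 and 5.77 CPM with syringaldehyde. Its control libraries lay between them. The lower of the treated libraries was 24.6 to 27.1 times the highest other phenolic library in each of the 5 genes.

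The pattern most like that of ARZ_800_T1 across the 20 libraries was looked for among 16183 genes with a mean of at least 1 CPM. Likeness was Pearson's r of log2(CPM + 1) after the mean of each experiment was taken off, and libraries of a group share their treatment. The 5 most alike were all members: ARZ_17227_T1 (r = 0.962), ARZ_535_T1 (0.938), ARZ_11242_T1 (0.938), ARZ_6554_T1 (0.930) and ARZ_9171_T1 (0.928). Of the 20 most alike, 15 were members, which the rule favours. Among pairs of members, r reached 0.98 for ARZ_11242_T1 with ARZ_5267_T1 (0.986) and for ARZ_9171_T1 with ARZ_5267_T1 (0.981). The ratio of the levels within these pairs, on the CPM + 1 scale, ran from 0.754 to 1.41 and from 0.607 to 1.40 over the 20 libraries. The rule chose all members for a high level in the same 2 libraries, which raises r between any of them, so nothing is read from these values. Whether they are near-identical copies was not analysed here, and how reads that fit more than a single gene were treated is not stated, so their separate values are uncertain.

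A second tier held 6 members with R between 2.28 and 3.70 whose treated libraries agreed closely. ARZ_17227_T1 was at 92.6 and 105 CPM with 4-hydroxybenzaldehyde, 7.54 and 5.86 CPM in the control, and 16.8 and 20.1 CPM with vanillin. ARZ_535_T1 was at 85.7 and 77.95 CPM, 8.24 and 14.1 CPM, and 36.3 and 32.4 CPM in the same order. ARZ_3858_T1 was at 113 and 112 CPM, 17.4 and 19.2 CPM, and 42.8 and 44.1 CPM. In these genes the vanillin libraries lay between the control and 4-hydroxybenzaldehyde. ARZ_18142_T1 followed the same order, with 163 and 151 CPM, 26.7 and 28.1 CPM, and 75.1 and 81.8 CPM. ARZ_7463_T1 differed from them, with 106 and 109 CPM against 12.4 and 17.7 CPM in the control and 16.3 and 18.002 CPM with vanillin. ARZ_17155_T1 was at 39.2 and 38.5 CPM against 6.37 and 8.04 CPM in the control. Next to it in R was ARZ_9172_T1 (2.27), at a lower level of 10.96 and 12.3 CPM with 4-hydroxybenzaldehyde.

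ARZ_1590_T1 also had an R above 2 (2.87), but its value came from 1 library. It had 498 reads (33.1 CPM) in 4-hydroxybenzaldehyde replicate 1 and 16609 reads (1069 CPM) in replicate 2, a 32.3-fold difference between libraries of the same group. Replicate 1 was the lowest of all 20 libraries, and the 18 libraries without 4-hydroxybenzaldehyde lay between 37.6 and 74.7 CPM. Without replicate 2 its R was −1.14. It was the only one of 11527 genes with at least 10 CPM with 4-hydroxybenzaldehyde whose libraries of that group differed over 8-fold, and the only member not called against the control. It is kept as a member because the rule names it, and it is counted with the others below.

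Several abundant genes were members with a smaller ratio. ARZ_13463_T1 was at 1644 and 1344 CPM with 4-hydroxybenzaldehyde against 524 and 694 CPM in the control, a ratio of 2.45. ARZ_9887_T1 was at 555 and 531 CPM against 144 and 163 CPM, with vanillin between them at 278 and 294 CPM. ARZ_3530_T1 was at 172 and 189 CPM against 63.9 and 74.3 CPM. In each of these the treated libraries were above every other phenolic library, by at least 1.51-fold. ARZ_13177_T1 was at 234 and 287 CPM against 78.1 and 99.4 CPM, and ARZ_16650_T1 at 141 CPM in both libraries against 34.4 and 35.8 CPM. ARZ_7794_T1 was at 84.9 and 90.4 CPM against 22.0 and 27.8 CPM. Lower levels were seen in ARZ_15729_T1, at 13.8 and 14.1 CPM against 3.62 and 4.32 CPM, and in ARZ_3055_T1, at 11.4 and 11.1 CPM against 2.63 and 4.23 CPM. In all of these genes too, from ARZ_13177_T1 on, both treated libraries lay above every other phenolic library. Without ARZ_1590_T1, the other 33 members together took 0.773% and 0.732% of the counts of the 4-hydroxybenzaldehyde libraries and 0.127% to 0.209% of the counts of the other 18. The 6 members with the largest R gave 0.354% and 0.339% of the counts of the 4-hydroxybenzaldehyde libraries. The rule chose members for a high level in these libraries, so nothing is read from the shares.

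At the low end, 5 members had under 10 CPM with 4-hydroxybenzaldehyde: ARZ_17150_T1, ARZ_8643_T1, ARZ_1536_T1, ARZ_5268_T1 and ARZ_13432_T1. They held 34 to 138 reads in the treated libraries and 3 to 42 reads in the control libraries, so counting error alone is large. ARZ_8643_T1 had 58 and 34 reads with 4-hydroxybenzaldehyde, 3 and 3 in the control, 5 and 3 with vanillin and 0 and 0 with syringaldehyde. A count of 0 allows up to 3 counts, which is 0.177 and 0.197 CPM in the syringaldehyde libraries. With a pseudocount of 5 CPM in place of 1, the rule found 23 genes, all of them among the 34.

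**Figure D2:**
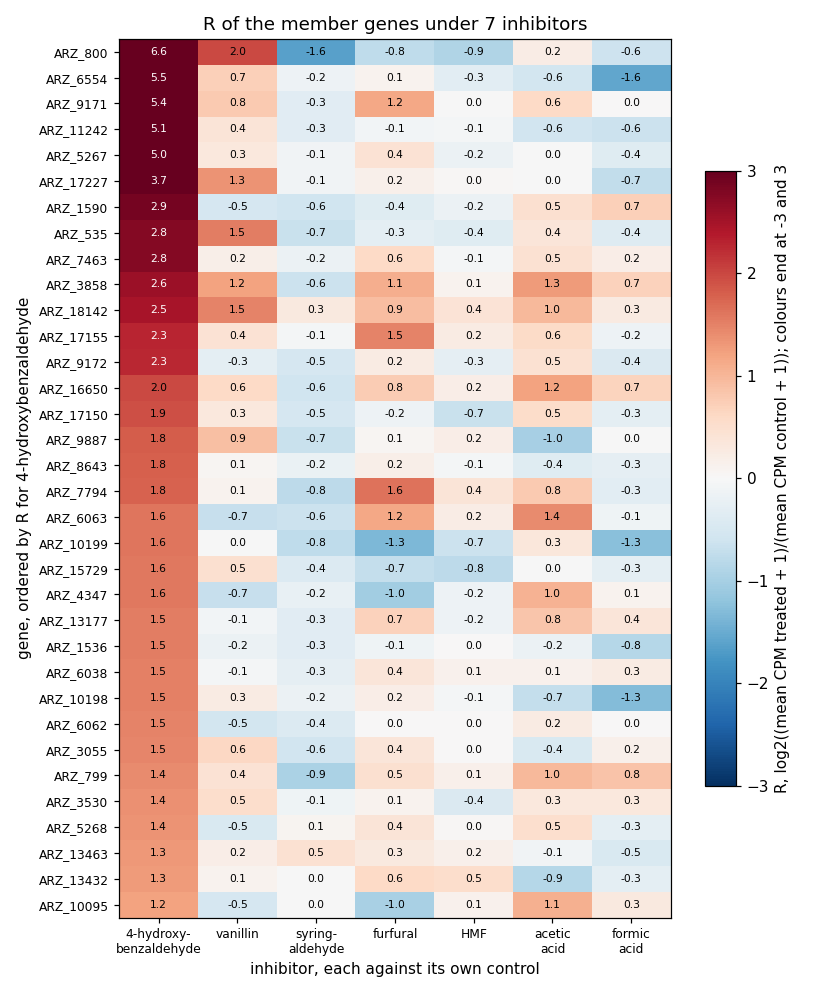
R of the 34 genes (rows, ordered by R for 4-hydroxybenzaldehyde) under the 7 inhibitors (columns), each against its own control; the printed numbers are R and the colours end at −3 and 3. The first column is the highest in every row, as the rule requires. The vanillin and syringaldehyde columns differ in sign in 21 rows with R above 0 for vanillin and below 0 for syringaldehyde.

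The members did not move alike with the other phenolic aldehydes. Vanillin gave an R of at least 1 in 5 members: ARZ_800_T1 (1.98), ARZ_535_T1 (1.54), ARZ_18142_T1 (1.49), ARZ_17227_T1 (1.34) and ARZ_3858_T1 (1.204). Syringaldehyde gave an R of at least 1 in 0 members and of at most −1 in 1, ARZ_800_T1 (−1.64). In the other 29 members both values lay between −1 and 1. The lowest R for vanillin among members with at least 10 CPM were those of ARZ_6063_T1 (−0.70), ARZ_4347_T1 (−0.68) and ARZ_6062_T1 (−0.54). In the same members, for syringaldehyde, ARZ_799_T1 (−0.95) and ARZ_7794_T1 (−0.78) followed ARZ_800_T1 at the low end, and ARZ_13463_T1 (0.45), ARZ_18142_T1 (0.30) and ARZ_10095_T1 (−0.02) were highest. R for vanillin was above 0 in 23 members and R for syringaldehyde in 3, against 50.3% and 49.8% of all genes.

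In the fit of all genes with edgeR, 10 members were called higher and 1 lower with vanillin than in the control, against 8.83% and 10.4% of all genes tested (19.2% in either direction). With syringaldehyde 0 were called higher and 7 lower, against 10.9% and 13.2% (24.1%). At an unadjusted edgeR p under 0.05, 0 were higher and 12 lower with syringaldehyde, and DESeq2 called 0 and 8. The rule bounded both contrasts from above, and nothing is read from these counts. Without phenolic control replicate 1 the calls for vanillin were 6 higher and 3 lower. The total for vanillin was 6 without vanillin replicate 1, vanillin replicate 2 or phenolic control replicate 2, and the total for syringaldehyde was 2 without phenolic control replicate 2 and 15 without syringaldehyde replicate 2, of which 1 was higher.

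The rule did not use the difference between vanillin and syringaldehyde itself, but their libraries took part in the choice of members. The counts below are therefore a description and no independent evidence about the set. The rule set the same bound on both compounds, and that bound acted unequally. Among genes with an R of at least 1.2 for 4-hydroxybenzaldehyde, 12 were left out by the bound on vanillin alone and 1 by that on syringaldehyde alone. Of the 34 members, 14 were higher with vanillin than with syringaldehyde (41.2%) and 0 lower, against 2.84% and 1.9% of the 17495 genes tested, 4.74% in either direction (edgeR quasi-likelihood, adjusted p under 0.05). At an unadjusted p under 0.05, 18 were higher and 3 lower, and DESeq2 called 15 and 0. The median log2 difference was 0.70 over the members and 0.00 over all genes tested. Both vanillin libraries lay above both syringaldehyde libraries in 20 members, against 22.3% of all genes, and below them in 5, against 19.2%. Both compounds were given at 0.1 g/L, so their molar doses differ.

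The widest called differences were in genes with an R above 2 for 4-hydroxybenzaldehyde. ARZ_800_T1 was higher with vanillin by log2 3.90 ± 0.32 (SE, 95% interval 3.22 to 4.59). ARZ_535_T1 was at 36.3 and 32.4 CPM with vanillin and 6.503 and 6.82 CPM with syringaldehyde, a difference of 2.34 ± 0.24 (1.83 to 2.85). ARZ_3858_T1 differed by 1.92 ± 0.18 (1.52 to 2.32) and ARZ_17227_T1 by 1.56 ± 0.19 (1.15 to 1.98). In all 4 the libraries of the compounds did not overlap, a separation seen in this direction in 22.3% of all genes. By edgeR's quasi-likelihood test the adjusted p of the 14 called genes was between 6.76e-06 (ARZ_800_T1) and 0.0447 (ARZ_3530_T1). The other called genes were ARZ_9887_T1, ARZ_3055_T1, ARZ_799_T1, ARZ_9171_T1, ARZ_16650_T1, ARZ_18142_T1, ARZ_6554_T1, ARZ_7794_T1 and ARZ_11242_T1, with differences from 0.76 to 1.53. Without vanillin replicate 1, without vanillin replicate 2 or with only these groups in the fit, 5 of the 14 were no longer called: ARZ_3055_T1, ARZ_6554_T1, ARZ_7794_T1, ARZ_11242_T1 and ARZ_3530_T1. ARZ_11242_T1 was also lost without syringaldehyde replicate 1, and ARZ_3530_T1 without syringaldehyde replicate 2.

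For other members a difference between vanillin and syringaldehyde was not shown. ARZ_5267_T1, one of the 5 leading genes, differed by 0.45 (95% interval −0.09 to 0.995), and ARZ_7463_T1 by 0.38 (−0.13 to 0.89). ARZ_10095_T1 and ARZ_4347_T1 had differences of −0.51 each (−1.03 to −0.0014 and −0.996 to −0.02), with adjusted p-values of 0.260 and 0.239 (edgeR quasi-likelihood). The interval lay within 2-fold either way for 8 of the 34 members. The number called was 9 without vanillin replicate 1 or replicate 2, 9 with only these groups in the fit, and 21 without syringaldehyde replicate 2, of which 20 were higher.

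**Figure D3:**
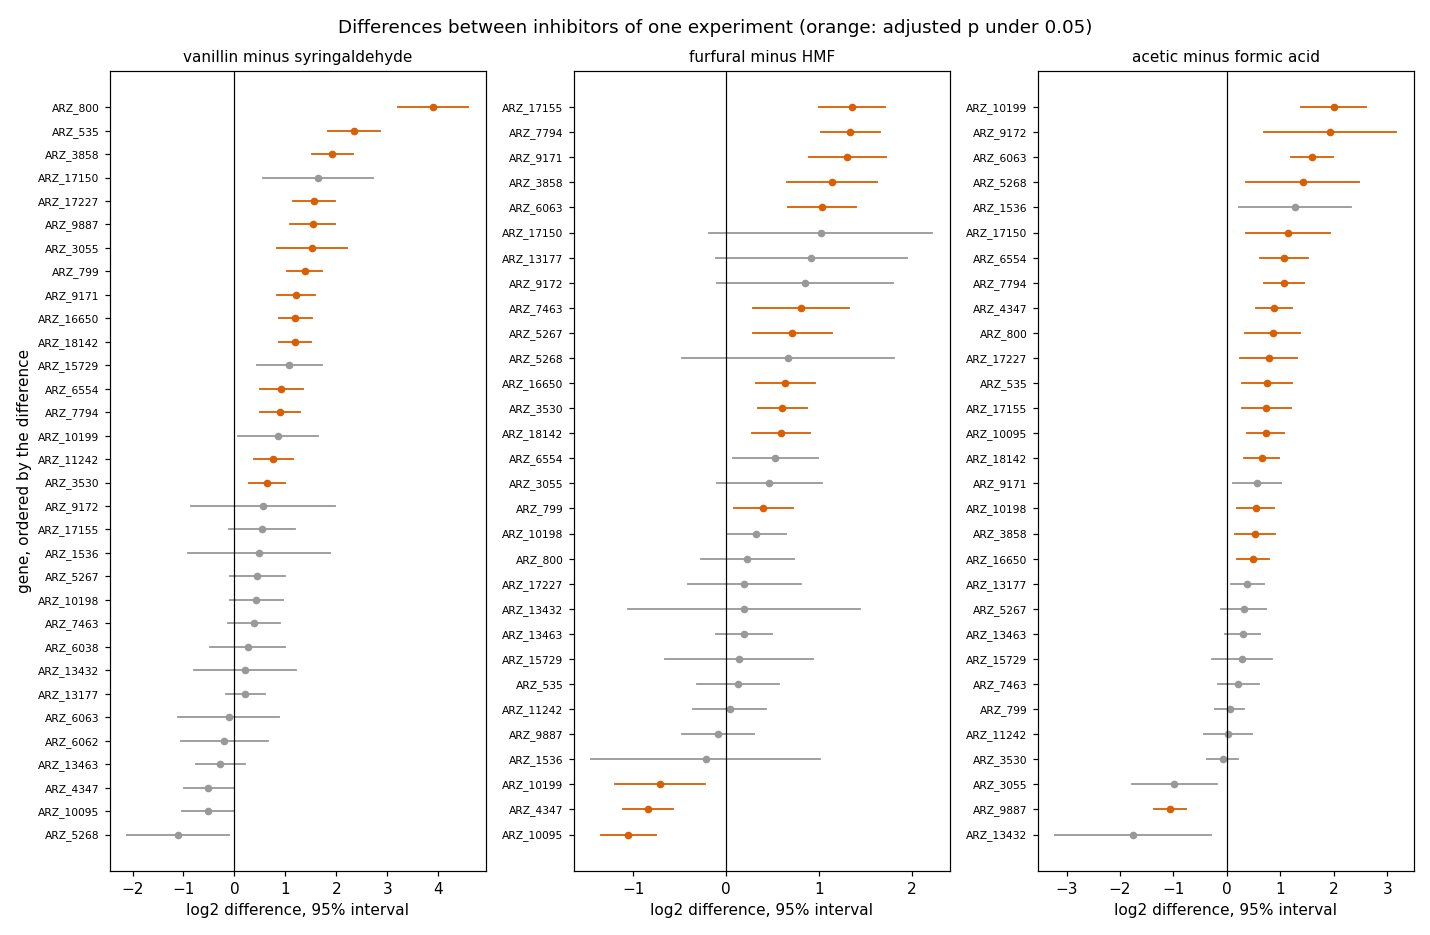
Log2 differences between inhibitors of the same experiment for the members tested, with 95% intervals from the edgeR fit; ARZ_1590_T1 and ARZ_8643_T1 are left out. Orange marks an adjusted p under 0.05. The 14 called genes lie to the right of 0 in the first panel, 11 of 14 in the second and 17 of 18 in the third.

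Among the furans, furfural gave an R of at least 1 in 5 members and HMF in 0. The 5 were ARZ_7794_T1 (1.64), ARZ_17155_T1 (1.48), ARZ_9171_T1 (1.16), ARZ_6063_T1 (1.15) and ARZ_3858_T1 (1.10). ARZ_17155_T1 was at 36.5 and 38.7 CPM with furfural, close to its 39.2 and 38.5 CPM with 4-hydroxybenzaldehyde in the other experiment, against 12.2 and 13.4 CPM in the furan control. The lowest R for furfural were those of ARZ_10199_T1 (−1.34) and ARZ_4347_T1 (−1.05). R for HMF lay between −0.90 and 0.52, with ARZ_18142_T1 (0.40) and ARZ_7794_T1 (0.39) highest and ARZ_800_T1 (−0.90) and ARZ_15729_T1 (−0.79) lowest among members with at least 10 CPM. Of the 31 members that passed the filter on low counts, edgeR called 10 higher and 4 lower with furfural than in its control, against 17.4% and 16.9% of all genes (34.3% in either direction). With HMF it called 0 higher and 2 lower, against 5.0% and 3.45% (8.45%), while 2 were higher and 5 lower at an unadjusted p under 0.05 and DESeq2 called 0 and 2. The total for HMF was 1 without HMF replicate 3 or either control library, and without furan control replicate 2 that 1 call was higher, not lower. The rule required R for both furans to be smaller in size than R for 4-hydroxybenzaldehyde, so nothing is read from these counts.

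Furfural and HMF were compared directly at 1.0 g/L each, with unequal molar doses. The rule bounded R for each of them in size by R for 4-hydroxybenzaldehyde, so their libraries also took part in the choice of members. The counts in this comparison are a description and no independent evidence about the set. Of the 31 members tested, 11 were higher with furfural (35.5%) and 3 lower (9.68%), against 17.2% and 17.0% of the 16398 genes tested (34.2% in either direction). ARZ_17155_T1 was higher with furfural by log2 1.36 ± 0.17 (95% interval 1.00 to 1.71) and ARZ_7794_T1, at 52.9 and 55.1 against 22.7 and 21.8 CPM, by 1.34 ± 0.15 (1.02 to 1.66). ARZ_10095_T1 was lower by −1.05 ± 0.14 (−1.35 to −0.76) and ARZ_4347_T1 by −0.84 ± 0.13 (−1.11 to −0.57). The libraries of these 4 genes, named for their wide differences, did not overlap between the furans. The share of all genes separated in this way was not counted. By the same edgeR test their adjusted p was between 7.04e-07 and 3.21e-05, and the median log2 difference was 0.47 over the members against 0.00 over all genes tested. Without furfural replicate 2 the number called was 8, of which 6 were higher. For ARZ_800_T1 the difference was 0.23 (−0.27 to 0.73) and for ARZ_11242_T1 it was 0.04 (−0.35 to 0.44), neither of them called.

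Under the weak acids, acetic acid gave an R of at least 1 in 5 members and formic acid in 0. The 5 were ARZ_6063_T1 (1.43), ARZ_3858_T1 (1.28), ARZ_16650_T1 (1.21), ARZ_10095_T1 (1.07) and ARZ_4347_T1 (1.05). Among members with at least 10 CPM, the low end held ARZ_9887_T1 (−1.0005) and ARZ_10198_T1 (−0.72) with acetic acid, and ARZ_6554_T1 (−1.57), ARZ_10198_T1 (−1.30) and ARZ_10199_T1 (−1.25) with formic acid. The highest R for formic acid were those of ARZ_799_T1 (0.85) and ARZ_1590_T1 (0.71). ARZ_6554_T1, second by R for 4-hydroxybenzaldehyde, was at 6.34 and 4.88 CPM with formic acid against 20.8 and 16.4 CPM in the acid control. Of the 32 members tested, edgeR called 13 higher and 5 lower with acetic acid, against 19.7% and 18.3% of all genes (37.9% in either direction). Without acid control replicate 1 the calls for acetic acid were 13 higher and 2 lower, and without acetic acid replicate 2 they were 10 and 3. With formic acid it called 6 higher and 6 lower, against 20.9% and 18.8% (39.7%). For formic acid they were 4 higher and 3 lower without formic acid replicate 2, and 4 and 4 without replicate 1. They were 4 and 5 without acid control replicate 1. ARZ_1590_T1 was among the genes called higher with each acid. R for both acids was bounded by the rule in the same way, and nothing is read from these counts.

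Acetic and formic acid were given at different doses, 2.0 and 4.0 g/L, so the difference between them joins compound and dose. The rule bounded R for each acid in size by R for 4-hydroxybenzaldehyde, so these libraries also took part in the choice of members. The counts that follow are a description and no independent evidence about the set. Of the 32 members tested, 17 were higher with acetic acid (53.1%) and 1 lower (3.12%), against 11.8% and 13.3% of the 16714 genes tested (25.1% in either direction). ARZ_10199_T1 was at 6.76 and 6.91 CPM with acetic acid and 2.03 and 1.19 CPM with formic acid, a log2 difference of 2.00 ± 0.29 (95% interval 1.39 to 2.61). ARZ_9172_T1 was at 2.19 and 0.995 against 0.297 and 0.488 CPM, a difference of 1.93 ± 0.59 (0.68 to 3.17). ARZ_9887_T1 went the other way, at 57.1 and 65.5 against 119 and 124 CPM, a difference of −1.06 ± 0.14 (−1.36 to −0.77). In that order the edgeR adjusted p was 0.000103, 0.0236 and 4.29e-05. The call for ARZ_9172_T1, which had 36 and 18 reads against 6 and 9, was lost without acetic acid replicate 1 (0.265), formic acid replicate 1 (0.181) or formic acid replicate 2 (0.0833). Leaving out acetic acid replicate 2 or formic acid replicate 1 gave 10 called genes, and leaving out formic acid replicate 2 gave 7, each time with 1 of them lower. Without acetic acid replicate 1 the calls were 13 higher and 2 lower.

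ARZ_4347_T1 and ARZ_10095_T1 behaved alike across the 3 experiments (r = 0.947 over 20 libraries, a pair chosen after its values were seen). With 4-hydroxybenzaldehyde they were at 252 and 259.8 CPM and at 213 and 210.2 CPM. Both had a negative R for vanillin (−0.68 and −0.50) and furfural (−1.05 and −0.98) and a positive one for acetic acid (1.05 and 1.07). Their control levels also moved between experiments, with means of 85.05, 135 and 62.4 CPM for ARZ_4347_T1 in the phenolic, furan and acid controls and 91.1, 125 and 69.0 CPM for ARZ_10095_T1.

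Of the 34 members, 10 formed 5 pairs with consecutive identifier numbers. No other members had numbers within 3 of each other. The tables hold 18829 such pairs, of which 7 had an R of at least 1.2 for 4-hydroxybenzaldehyde in both genes. Whether the numbers follow position in the genome is not stated in the sources used here. ARZ_799_T1 was at 196 and 183 CPM with 4-hydroxybenzaldehyde against 72.0 and 68.1 CPM in the control, beside ARZ_800_T1. ARZ_9172_T1 was at 10.96 and 12.3 CPM against 1.69 and 1.53 CPM, beside ARZ_9171_T1. ARZ_5268_T1 was at 4.85 and 5.09 CPM against 1.64 and 1.02 CPM, beside ARZ_5267_T1. In these 3 pairs a leading gene stood beside a member with a smaller response, 1.36 to 2.27 in R.

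The other pairs held genes of similar response. ARZ_10198_T1 was at 53.3 and 55.7 CPM against 14.2 and 22.6 CPM in the control, and ARZ_10199_T1 at 27.4 and 34.2 against 7.60 and 11.3 CPM. ARZ_6062_T1 was at 13.7 and 16.4 CPM against 2.57 and 6.92 CPM, and ARZ_6063_T1 at 15.5 and 19.8 against 2.45 and 7.81 CPM. In both genes of the last pair, control replicate 2 was well above replicate 1, and the treated libraries were above both. Across the 20 libraries, r within the 5 pairs ran from 0.774 to 0.904. This lies inside the range of r between ARZ_800_T1 and the other members compared with it (0.441 to 0.962, median 0.819, n = 31). That median and n leave out ARZ_6554_T1, at r = 0.930. Genes within 3 numbers of the 6 members with the largest R that were not members themselves had an R for 4-hydroxybenzaldehyde from −0.72 (ARZ_5266_T1, beside ARZ_5267_T1) to 0.81 (ARZ_6553_T1, beside ARZ_6554_T1). Near ARZ_800_T1 it ran from −0.32 for ARZ_802_T1 to 0.78 for ARZ_798_T1.

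**Figure D4:**
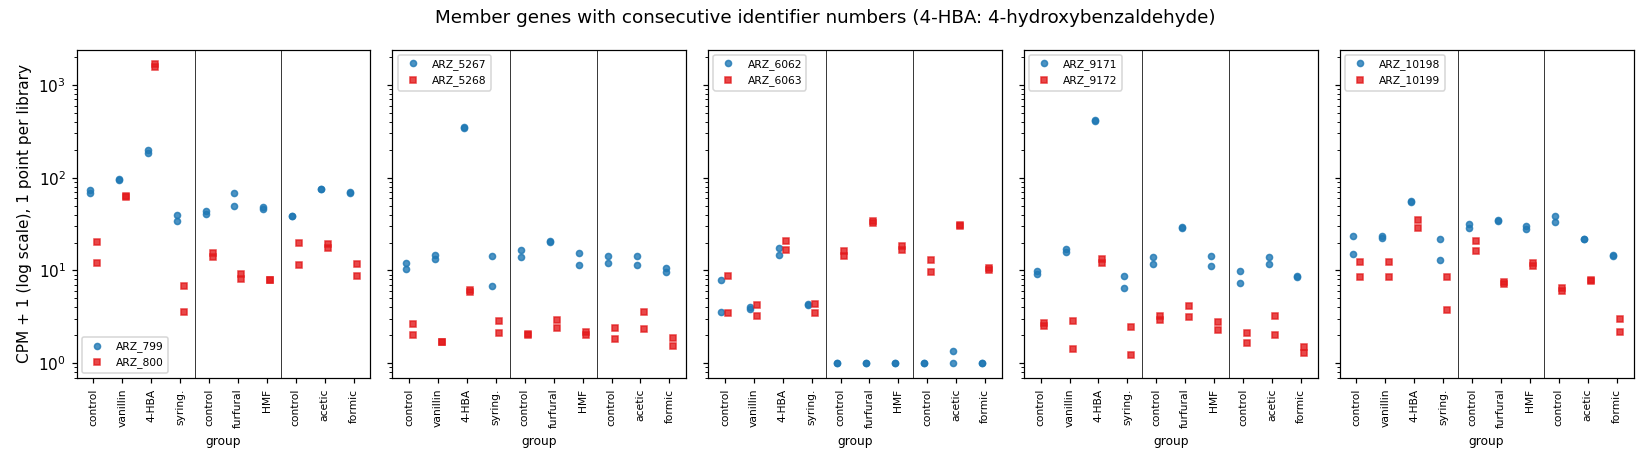
Levels of the 5 pairs of members with consecutive identifier numbers in the 20 libraries, as CPM + 1 on a log axis, with 1 point per library; vertical lines part the phenolic aldehyde, furan and weak acid experiments. Both genes of each pair are highest among the phenolic groups with 4-hydroxybenzaldehyde, and ARZ_6062_T1 is at 0 reads in 11 of the 12 libraries outside that experiment.

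On the CPM + 1 scale the means of the 3 untreated controls lay within 2-fold for 28 of the 34 members (82.4%), about the same share as among all genes (84.1%). ARZ_800_T1 was at means of 15.1, 13.6 and 14.7 CPM in the phenolic, furan and acid controls. The 6 others were ARZ_3858_T1, ARZ_6063_T1, ARZ_10199_T1, ARZ_4347_T1, ARZ_6038_T1 and ARZ_6062_T1, and the last 2 lay furthest apart. ARZ_6038_T1 was at 18.5 and 17.3 CPM with 4-hydroxybenzaldehyde, between 2.31 and 6.69 CPM in the other phenolic libraries, and under 1 CPM in all 12 libraries of the other experiments. ARZ_6062_T1 had 44 to 254 reads in the phenolic libraries, 6 reads in acetic acid replicate 1 and 0 in the other 11, where a count of 0 allows up to 0.259 CPM. Such a gap between experiments, at least 2 CPM in all 8 phenolic libraries and under 1 CPM in the 12 others, was shared by 136 genes, 2 of them members. Experiment and library preparation cannot be told apart here, and for these 2 genes R for the furans and acids rests on almost no reads.

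**Figure D5:**
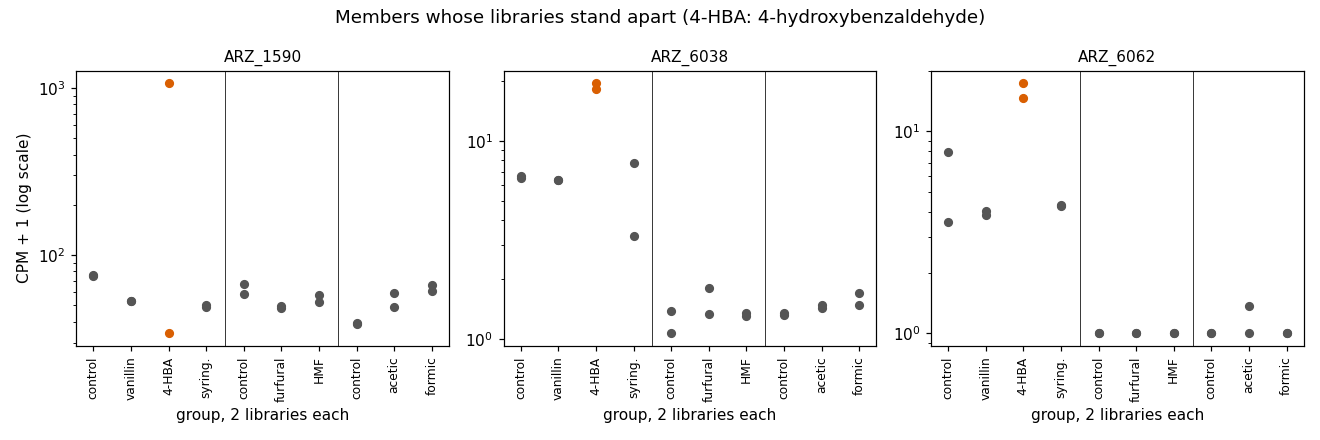
Levels of ARZ_1590_T1, ARZ_6038_T1 and ARZ_6062_T1 in the 20 libraries, as CPM + 1 on a log axis, with 1 point per library and 4-hydroxybenzaldehyde in orange; vertical lines part the experiments. ARZ_1590_T1 is high in 1 library of 20, and the other genes are near 0 outside the phenolic aldehyde experiment.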

How the data were processed

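Per the labels' protocols, RNA was taken from mycelia with Trizol and made into Ion Proton libraries. The deposited values are whole-number read counts per identifier in 3 tables, 1 for each experiment; the sources used here give no aligner, counter or gene models. The submitters' processing notes list the assembly Sscrofa 10.2, that of the pig, for these fungal libraries. CPM was each count divided by its library's total and scaled to 1000000. All groups of a table entered 1 fit, made with edgeR 4.0.16 in R 4.3.3 (filterByExpr, TMM, robust quasi-likelihood F-tests, two-sided, Benjamini-Hochberg over all genes tested, threshold 0.05). All 34 members passed the filter in the phenolic table, 31 in the furan table (not ARZ_6038_T1, ARZ_6062_T1 and ARZ_8643_T1) and 32 in the acid table (not ARZ_6038_T1 and ARZ_6062_T1). Standard errors come from the F statistics, and intervals for reads and floors of 3 counts cover counting error only. Members, comparisons and the rule for named genes (the largest and smallest values in each comparison among members with at least 10 CPM with 4-hydroxybenzaldehyde) were chosen with earlier results of these data known. DESeq2 1.42.0, other scalings, filters and pseudocounts, a replicate block and each library left out were alternatives. Figures were drawn with matplotlib 3.10.9.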

Additional observations from a re-analysis of the deposited data

How the results depend on the processing

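The rule found between 28 and 57 genes when each of the 20 libraries was left out in turn, and 23 to 35 under other scalings, pseudocounts and a minimum of 10 CPM. R for 4-hydroxybenzaldehyde kept its sign in every member under these settings except for ARZ_1590_T1, which was at −1.14 without 4-hydroxybenzaldehyde replicate 2 and 3.83 without replicate 1. With 1 library of the compared groups left out, the number of members called ran from 20 to 27 for 4-hydroxybenzaldehyde against its control, 6 to 9 for vanillin, 2 to 15 for syringaldehyde, 10 to 14 for furfural, 1 to 2 for HMF, 13 to 18 for acetic acid and 7 to 14 for formic acid. It ran from 27 to 29 for 4-hydroxybenzaldehyde against vanillin, 30 to 33 against syringaldehyde, 9 to 21 for vanillin against syringaldehyde, 8 to 13 for furfural against HMF and 7 to 15 for acetic against formic acid. The lone library left in a group is assumed to vary like the others. With only the groups compared in the fit, 3 members were called for syringaldehyde against its control, 9 for vanillin against syringaldehyde and 1 for HMF. DESeq2, median-of-ratios scaling, testing without a filter and requiring 10 CPM in 2 libraries moved no count by over 1.5 times. With the replicate block, 33 members were called for 4-hydroxybenzaldehyde and 13 for vanillin against syringaldehyde (not ARZ_3530_T1, with an edgeR adjusted p of 0.0635). For furfural the block was fitted to the furfural and control libraries only, without HMF. It gave 18 called members, against 16 in those libraries without the block. The numbers were not shown to pair libraries, since the correlation of same-numbered deviations ran from −0.12 to 0.17 between groups. No paired analysis was possible for HMF because its libraries are numbered 3 and 4. Depth limits the 5 members under 10 CPM.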
